A study of Homo sapiens with 12 samples.

Results

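The enzymes that write and remove DNA methylation are encoded by 6 genes, taken by symbol: the DNA methyltransferases DNMT1, DNMT3A and DNMT3B and the TET dioxygenases TET1, TET2 and TET3. They are 6 of 18304 gene symbols in the count tables, and each had a row in both tables. Expression was profiled by paired-end sequencing of poly(A)-selected RNA from a pair of human cell lines established from acute myeloid leukaemia, OCI-AML2 and MOLM-13, both labelled as leukaemic blasts. Cells received selinexor, an inhibitor of the nuclear export protein XPO1, at 200 nM in OCI-AML2 or 75 nM in MOLM-13, and were set against cells given vehicle (DMSO), all for 36 h. Each of the 4 groups held 3 libraries, which the submitters describe as biologically independent. Because each line had its own dose, line and dose cannot be told apart, and each line is 1 model of the disease.

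DNA methylation is placed on cytosines, mostly in CpG pairs, by the DNMT enzymes. DNMT1 copies the pattern onto the daughter strand at replication with the help of UHRF1, which recognises hemimethylated CpG sites, whereas DNMT3A and DNMT3B can methylate sites that carried no mark. TET enzymes oxidise the methyl group in a reaction that consumes 2-oxoglutarate, and the oxidised base is diluted at replication or cut out by the glycosylase TDG. DNMT3A and TET2 are among the genes most often mutated in acute myeloid leukaemia and clonal haematopoiesis.

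Promoters of DNMT1, of its partners UHRF1 and HELLS, and of TET2 are shown because the first 3 genes fell and TET2 rose in both lines, as described below, and were chosen after these values were seen. Each run holds 230 bases before and 20 bases after the most upstream start listed for the gene by RefSeq on GRCh38.p14, read in the direction of transcription. Capitals mark the E2F motif, searched as TTTCCCGC, TTTCGCGC, TTTGCCGC or TTTGGCGC and the reverse complement of each, with overlapping matches counted singly.
DNMT1: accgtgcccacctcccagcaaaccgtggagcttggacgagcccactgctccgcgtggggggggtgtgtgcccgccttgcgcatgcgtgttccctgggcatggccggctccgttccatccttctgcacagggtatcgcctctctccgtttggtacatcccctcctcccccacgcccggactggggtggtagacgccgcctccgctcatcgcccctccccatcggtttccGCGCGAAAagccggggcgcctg
UHRF1: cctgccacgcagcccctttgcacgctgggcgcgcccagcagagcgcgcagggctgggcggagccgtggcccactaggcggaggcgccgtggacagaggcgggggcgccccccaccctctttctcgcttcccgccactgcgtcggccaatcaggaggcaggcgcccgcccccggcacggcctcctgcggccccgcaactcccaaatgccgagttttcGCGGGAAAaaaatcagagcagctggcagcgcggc
HELLS: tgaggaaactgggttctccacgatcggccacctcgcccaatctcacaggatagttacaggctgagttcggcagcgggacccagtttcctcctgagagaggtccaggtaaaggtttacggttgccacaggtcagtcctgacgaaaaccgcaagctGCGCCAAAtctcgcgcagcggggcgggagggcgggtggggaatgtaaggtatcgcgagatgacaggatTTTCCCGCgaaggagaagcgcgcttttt
TET2: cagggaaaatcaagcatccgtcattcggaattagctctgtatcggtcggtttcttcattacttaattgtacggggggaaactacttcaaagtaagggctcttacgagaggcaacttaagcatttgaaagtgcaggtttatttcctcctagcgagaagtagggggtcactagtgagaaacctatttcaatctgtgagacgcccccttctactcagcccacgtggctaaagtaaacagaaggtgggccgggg
These runs lie at chr19:10194934-10195183 on the minus strand (DNMT1), chr19:4909271-4909520 on the plus strand (UHRF1), chr10:94545558-94545807 on the plus strand (HELLS) and chr4:105145645-105145894 on the plus strand (TET2). They hold 24, 28, 20 and 10 CpG pairs. The low TET2 count belongs to the start shown: in the 250 bases before a start, TET2 held 10 there and 34 at its other start. By that measure DNMT1 held 21, HELLS 18 and the UHRF1 start shown 28. In the full window of 300 bases, of which 250 lie before the start, the motif was in the 1 window of DNMT1, where it begins 2 bases before the start. It was in none of the 6 windows of DNMT3A, the 1 of DNMT3B, the 3 of TET1, the 2 of TET2 or the 2 of TET3. The DNMT3B window (chromosome 20, 32779602 to 32779901) lies inside the gene's span given below, which begins at 32762385. So does the DNMT1 window (chromosome 19, 10194904 to 10195203), whose gene's span on the minus strand begins at 10231286. For both genes the sequence before the span's beginning was not searched for the motif. Of all 35116 windows, 1164 (3.31%) held it, against 15 of the 34 windows (44.1%) of genes on a list of S phase genes described below. UHRF1 had it in 2 of its 3 windows, PCNA in 1 of 2, and HELLS and CDCA7 in their only ones. No window of the other genes searched, TDG, OGT, MAT2A, IDH1 and IDH2, held it, though TDG and IDH1 also fell in both lines. A match is a run of letters and not evidence of binding.

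Total counts per library were 8650518 to 9774423 with selinexor and 9506571 to 11769061 with vehicle in OCI-AML2, and 8114892 to 9711704 with selinexor and 8160133 to 9444344 with vehicle in MOLM-13. At this depth 3 counts in a library equal 0.255 to 0.370 CPM, a unit that scales counts to the library's total. This limit of detection allows for counting error alone. Levels are given as CPM after TMM scaling within a line, and p-values come from quasi-likelihood tests in edgeR, adjusted by Benjamini and Hochberg's method over the genes of a table that passed a filter on low counts and called below 0.05. These p-values weigh each difference against the spread between these libraries, 3 a group, estimated with information shared over genes. Both lines expressed myeloid markers, though not all on the list: the 12 summed to 14600 to 14900 CPM with selinexor and 3920 to 4090 CPM with vehicle in OCI-AML2, and to 6110 to 6440 CPM with selinexor and 3520 to 3660 CPM with vehicle in MOLM-13. A few genes made up most of each sum. With selinexor in OCI-AML2 LYZ averaged 9580 CPM and AZU1 3190 CPM, and with vehicle in MOLM-13 ELANE averaged 1450 CPM and AZU1 1050 CPM. In MOLM-13 CD14 was under the limit of detection and CSF1R averaged 1.75 CPM with selinexor and 1.35 CPM with vehicle. Markers on this list thus moved with treatment alongside every result below (9 rose and 1 fell of 12 tested in OCI-AML2, 9 rose of 11 in MOLM-13). Of all genes tested, 31.3% rose and 31.8% fell in OCI-AML2, and 31.8% rose in MOLM-13. The part of the myeloid markers in those results was not tested. Lymphoid markers were low but moved with treatment in OCI-AML2, where they summed to 21.3 to 26.5 CPM with selinexor and 14.4 to 15.9 CPM with vehicle and both markers tested, PAX5 and NKG7, rose; in MOLM-13 they summed to 16.4 to 16.8 CPM with selinexor and 14 to 19.5 CPM with vehicle. Their part in the results was not tested either. Erythroid markers summed to at most 30.7 CPM in any library. Epithelial and stromal markers summed to 32.6 to 42 CPM with selinexor and 12.2 to 12.6 CPM with vehicle in MOLM-13, nearly all KRT8 and KRT18, and to at most 1.49 CPM in OCI-AML2.

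With selinexor, DNMT1 and DNMT3B fell and TET2 rose in both lines. DNMT1 stood at 0.616 of its vehicle level in OCI-AML2 and at 0.479 in MOLM-13, and DNMT3B at 0.433 in OCI-AML2 and at 0.607 in MOLM-13. TET2 rose 1.47-fold in OCI-AML2 and 1.25-fold in MOLM-13. DNMT3A rose in OCI-AML2 and fell in MOLM-13, and TET3 did the reverse, with OCI-AML2 calls that some alternatives lost. All 6 genes passed the test in OCI-AML2, where 63.1% of the 12086 genes tested did, and so did the 5 genes tested in MOLM-13, where 63.6% of 11807 did. TET1 was too low to be tested in MOLM-13.

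**Figure D1:**
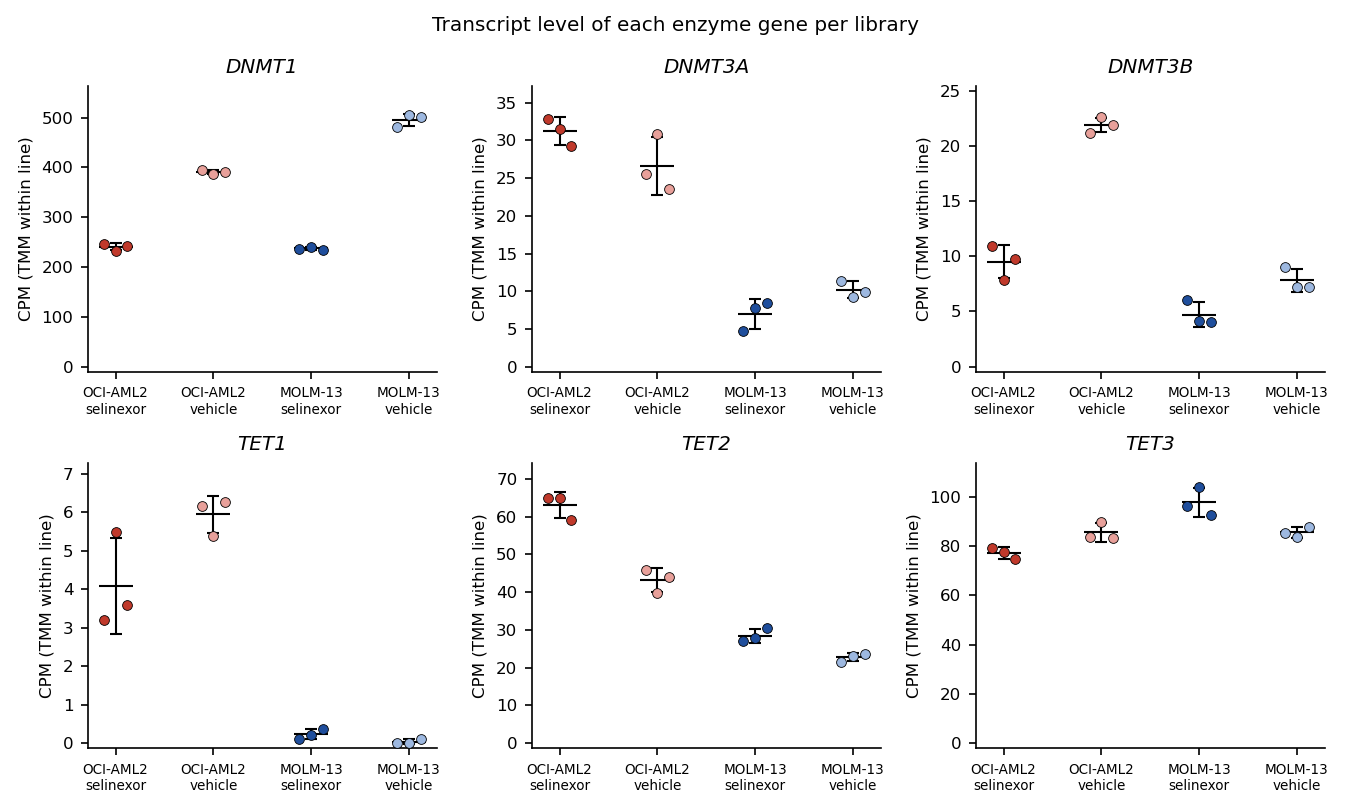
CPM of each gene in each library (points), with the mean and SD of 3 libraries (black bars), for selinexor and vehicle in OCI-AML2 and MOLM-13. The selinexor points of DNMT1 lie at 233 to 247 CPM in both lines, far under the vehicle points, and TET1 is near 0 in MOLM-13.

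DNMT1, the maintenance enzyme, was the most abundant of the 6 genes per length. In OCI-AML2 it had 247, 233 and 243 CPM with selinexor and 394, 386 and 391 CPM with vehicle. In MOLM-13 it had 237, 241 and 235 CPM with selinexor and 482, 505 and 501 CPM with vehicle. The groups were far apart in both lines; 33.3% of all genes in OCI-AML2 and 32.8% in MOLM-13 were likewise lower with no overlap. With all 12 libraries scaled together, DNMT1 averaged 244 ± 7.26 CPM in OCI-AML2 with selinexor and 238 ± 3.14 CPM in MOLM-13 with selinexor (SD, n = 3), a difference that was not tested. The log2 fold change (selinexor over vehicle) was -0.70 ± 0.040 (SE) in OCI-AML2 (edgeR adjusted p = 2.2e-19) and -1.06 ± 0.036 in MOLM-13 (edgeR adjusted p = 5.8e-48). Of all genes tested, 7.55% had a lower log2 fold change than DNMT1 in OCI-AML2 and 3.23% in MOLM-13. In bulk RNA, fewer cells in the phase that uses the gene and less RNA per cell cannot be told apart. The gene spans chromosome 19, 10133345 to 10231286, on the minus strand (GRCh38, GENCODE 29). It shares 83 exonic bases with S1PR2 on the same strand, whose reads there cannot be told apart from those of DNMT1.

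Most transcripts of the proteins that work with DNMT1 in maintenance methylation fell with it. Of 10 maintenance partners, 7 fell in each line and 2 rose in OCI-AML2; of all genes, 31.8% fell in each line and 31.3% rose in OCI-AML2. Their median log2 fold change was -0.55 in OCI-AML2 and -0.88 in MOLM-13, against -0.002 and 0.009 over all genes. UHRF1 had 276, 286 and 289 CPM with selinexor and 490, 504 and 508 CPM with vehicle in OCI-AML2, and 493, 469 and 455 CPM with selinexor and 905, 914 and 920 CPM with vehicle in MOLM-13. No selinexor library of UHRF1 reached a vehicle library of its line, and its log2 fold change was -0.82 ± 0.039 in OCI-AML2 and -0.95 ± 0.033 in MOLM-13. HELLS, the chromatin remodeller needed for methylation of heterochromatin, and its activator CDCA7 fell by 0.93 and 0.55 on the log2 scale in OCI-AML2 and by 1.19 and 0.80 in MOLM-13. PCNA, the sliding clamp that binds DNMT1, and USP7, a deubiquitinase of DNMT1 and UHRF1, fell by 0.54 and 0.57 in OCI-AML2 and by 1.12 and 0.44 in MOLM-13. The 2 partners that rose in OCI-AML2 were UHRF2, a paralogue of UHRF1 (log2 fold change 0.36 ± 0.060), and EHMT2, a histone H3 lysine methyltransferase (0.16 ± 0.053), picked out after their values were seen.

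DNMT1 is known as a gene transcribed in S phase, so its count was set against those of replication genes in the same library. All 30 genes on the S phase list fell in both lines, with median log2 fold changes of -0.64 in OCI-AML2 and -1.27 in MOLM-13, and their summed level was 3390 to 3410 CPM with selinexor and 5260 to 5410 CPM with vehicle in OCI-AML2 and 2110 to 2140 CPM with selinexor and 5230 to 5330 CPM with vehicle in MOLM-13. All 19 genes tested of a G2 and mitosis list fell too, with medians of -1.46 in OCI-AML2 and -1.91 in MOLM-13. Of all genes tested, 31.8% fell in each line. In OCI-AML2 the log2 ratio of DNMT1 to the list was -3.79, -3.86 and -3.81 with selinexor and -3.74, -3.81 and -3.76 with vehicle. These groups overlapped, with a difference of -0.05 (exact two-sided permutation test, p = 0.30, where 0.10 is the smallest p that 3 against 3 libraries can give). In MOLM-13 the ratio was -3.18, -3.14 and -3.17 with selinexor and -3.44, -3.40 and -3.41 with vehicle, so every selinexor library lay above every vehicle library. That difference was 0.25 (exact permutation p = 0.10, the smallest possible). Set against UHRF1 alone, DNMT1 averaged -0.24 ± 0.067 with selinexor and -0.36 ± 0.039 with vehicle in OCI-AML2, and -0.99 ± 0.056 with selinexor and -0.88 ± 0.027 with vehicle in MOLM-13 (log2 ratio, SD, n = 3). The groups did not overlap in either line and the directions were opposite.

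**Figure D2:**
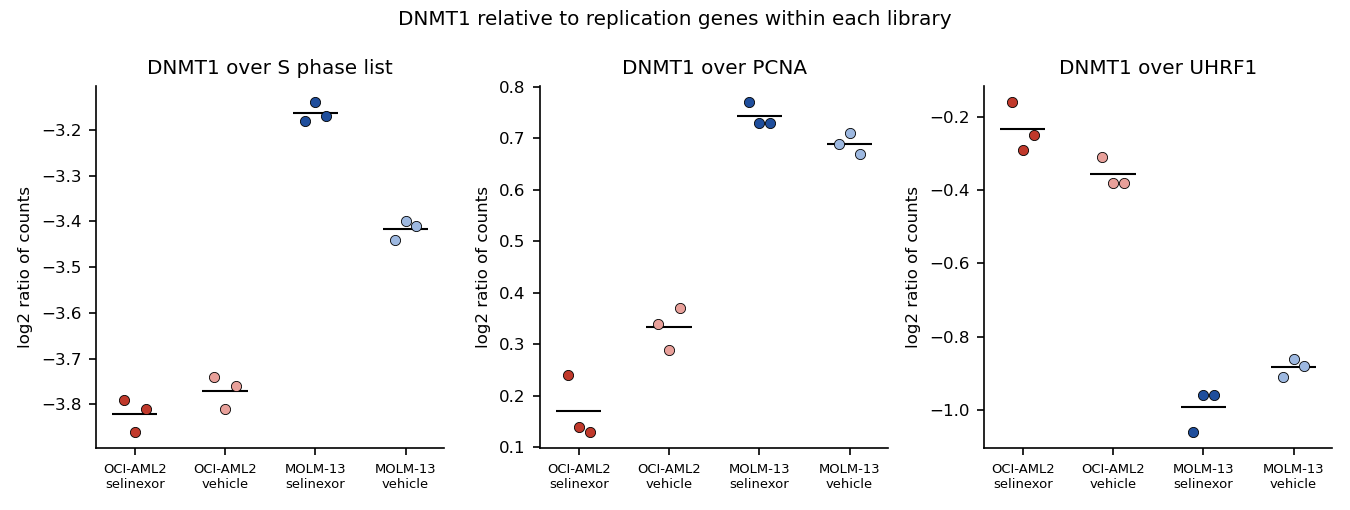
Log2 ratio of the DNMT1 count to the summed count of the 30 S phase genes, to PCNA and to UHRF1, per library (points) with the mean of 3 libraries (line); the vertical axes do not start at 0. Selinexor and vehicle overlap for the S phase ratio in OCI-AML2 and are separate in the other 5 pairs.

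The de novo methyltransferases differed from each other. DNMT3B fell in both lines. In OCI-AML2 it had 10.9, 7.87 and 9.78 CPM with selinexor and 21.2, 22.6 and 21.9 CPM with vehicle. In MOLM-13 it had 6, 4.17 and 4 CPM with selinexor and 8.99, 7.22 and 7.22 CPM with vehicle. Every selinexor library lay under every vehicle library in both lines, by a wide gap in OCI-AML2 and a narrower one in MOLM-13. Its log2 fold change was -1.21 ± 0.12 in OCI-AML2 (edgeR adjusted p = 1.8e-11), where 1.62% of genes had a lower one, and -0.72 ± 0.21 in MOLM-13 (edgeR adjusted p = 0.0015), where 7.1% did. DNMT3B spans chromosome 20, 32762385 to 32809356, on the plus strand.

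DNMT3A, on the minus strand of chromosome 2 (25227855 to 25342590), had opposite signs in the lines. In OCI-AML2 it had 32.9, 31.5 and 29.2 CPM with selinexor and 25.5, 30.9 and 23.5 CPM with vehicle. The groups overlapped through the second vehicle library. In MOLM-13 it had 4.73, 7.72 and 8.5 CPM with selinexor and 11.4, 9.3 and 9.84 CPM with vehicle. Here the groups did not overlap, as for 32.8% of all genes in this direction. The log2 fold change was 0.22 ± 0.096 in OCI-AML2 (edgeR adjusted p = 0.041) and -0.54 ± 0.18 in MOLM-13 (edgeR adjusted p = 0.0055). The OCI-AML2 call was lost with DESeq2 (0.23, adjusted p = 0.10), with limma voom (0.23, adjusted p = 0.053) and without any of vehicle library 1 (0.19), vehicle library 3 (0.13), selinexor library 1 (0.18) or selinexor library 2 (0.22); without vehicle library 2 it was 0.35, and adjusted p ranged from 0.0018 to 0.26 over all alternatives. The MOLM-13 call was lost without selinexor library 1 (-0.33, adjusted p = 0.11, within a range of 0.0015 to 0.11).

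Within a library, the log2 ratio of DNMT3A to DNMT3B counts in OCI-AML2 averaged 1.73 ± 0.24 with selinexor and 0.27 ± 0.18 with vehicle (SD, n = 3), with no overlap and a difference of 1.45 (exact permutation p = 0.10, the smallest possible). In MOLM-13 it was -0.34, 0.89 and 1.09 with selinexor and 0.35, 0.36 and 0.45 with vehicle, so the selinexor libraries lay on both sides of the vehicle ones (exact permutation p = 0.90).

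Of the partners and guides of de novo methylation, 3 fell among 9 tested in OCI-AML2, and 3 rose and 4 fell among 9 in MOLM-13, with medians of -0.04 in OCI-AML2 and -0.12 in MOLM-13. Members called made up 33.3% in OCI-AML2, against 63.1% of all genes, and 77.8% in MOLM-13, against 63.6%. NSD2, which writes the H3K36 dimethyl mark read by DNMT3A, fell by 0.92 on the log2 scale in OCI-AML2 and by 1.46 in MOLM-13. KDM1B, a histone H3K4 demethylase needed for maternal imprints in mouse oocytes, fell by 0.96 in OCI-AML2 and by 0.55 in MOLM-13. TRIM28, the corepressor of KRAB zinc finger proteins, fell by 0.45 in OCI-AML2 and by 0.57 in MOLM-13. MPHOSPH8, a reader of H3K9 methylation, rose in MOLM-13 (0.22 ± 0.056) and had 0.12 ± 0.071 in OCI-AML2. DNMT3L, the catalytically inactive cofactor of the de novo enzymes, was too low to be tested in either line.

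TET2, the dioxygenase most often mutated in myeloid disease, rose in both lines. In OCI-AML2 it had 65.1, 65.1 and 59.2 CPM with selinexor and 46, 39.7 and 43.9 CPM with vehicle. In MOLM-13 it had 27, 27.9 and 30.6 CPM with selinexor and 21.6, 23.2 and 23.6 CPM with vehicle. The groups did not overlap in either line, as was the case in this direction for 33.0% of all genes in OCI-AML2 and 32.7% in MOLM-13. Its log2 fold change was 0.55 ± 0.071 in OCI-AML2 (edgeR adjusted p = 6.8e-09) and 0.32 ± 0.098 in MOLM-13 (edgeR adjusted p = 0.0031). It was positive and called under every alternative tried. TET2 spans chromosome 4, 105145875 to 105279816, on the plus strand, and its exons share 0 bases with those of the antisense gene TET2-AS1.

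TET3, on the plus strand of chromosome 2 (73986404 to 74108176), was the most abundant TET gene per length. In OCI-AML2 it had 79.4, 77.4 and 74.6 CPM with selinexor and 83.8, 89.8 and 83.1 CPM with vehicle. In MOLM-13 it had 96.2, 104 and 92.8 CPM with selinexor and 85.3, 83.5 and 87.6 CPM with vehicle. Groups were separate in both lines, with selinexor lower in OCI-AML2, as for 33.3% of all genes, and higher in MOLM-13, as for 32.7%. Its log2 fold change was -0.15 ± 0.059 in OCI-AML2 (edgeR adjusted p = 0.025) and 0.20 ± 0.057 in MOLM-13 (edgeR adjusted p = 0.0018). The OCI-AML2 call was lost under upper quartile scaling (-0.10, adjusted p = 0.16), DESeq2 (-0.15, adjusted p = 0.067) and a joint fit of the 12 libraries (-0.11, adjusted p = 0.098), and without vehicle library 2 (-0.12), selinexor library 2 (-0.15) or selinexor library 3 (-0.12), with adjusted p from 0.019 to 0.16 over all alternatives; the MOLM-13 call was kept in all of them.

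TET1, on the plus strand of chromosome 10 (68560656 to 68694482), was low in OCI-AML2 and close to absent in MOLM-13. It has 1 transcript in GENCODE, the source of the exon lengths, but 3 promoter windows from RefSeq. In OCI-AML2 it had 3.19, 5.5 and 3.58 CPM with selinexor and 6.18, 5.39 and 6.28 CPM with vehicle. The second selinexor library lay above the second vehicle library, so the groups overlapped. The log2 fold change was -0.53 ± 0.22 (edgeR adjusted p = 0.032). This call was lost under upper quartile scaling (-0.48, adjusted p = 0.055), DESeq2 (-0.54, adjusted p = 0.079) and the joint fit (-0.49, adjusted p = 0.070), and without vehicle library 1 (-0.51), vehicle library 3 (-0.49), selinexor library 1 (-0.39) or selinexor library 3 (-0.44); without selinexor library 2 it was -0.81, and adjusted p ranged from 0.0053 to 0.15. In MOLM-13 TET1 had counts of 1, 2 and 3 with selinexor and 0, 0 and 1 with vehicle, at or under the limit of 3 counts in every library, and no fold is given.

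**Figure D3:**
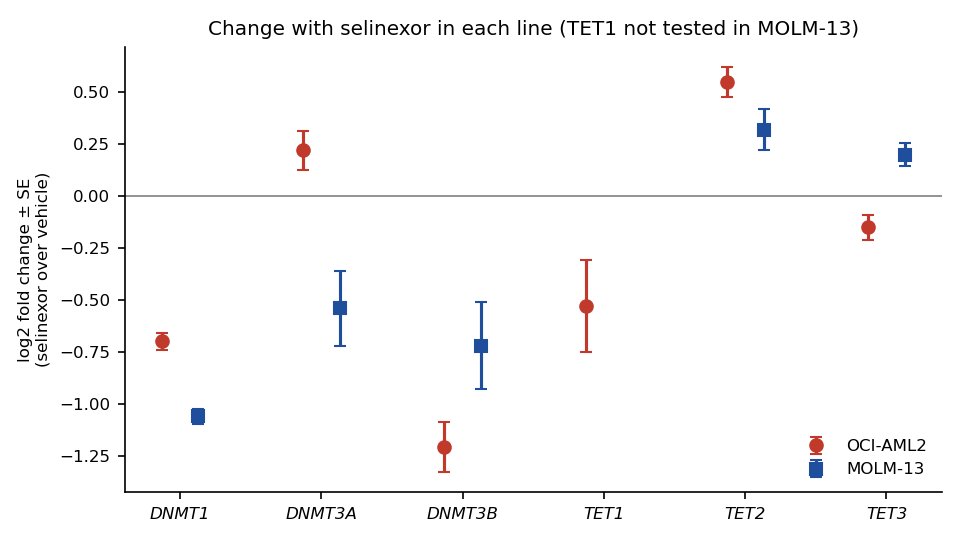
Log2 fold change (selinexor over vehicle) of each gene with its SE from edgeR, in OCI-AML2 (circles) and MOLM-13 (squares). DNMT1 and DNMT3B lie below 0 and TET2 above 0 in both lines, and DNMT3A and TET3 lie on opposite sides of 0.

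TET2 was also set against TET3 in the same library. In OCI-AML2 the log2 ratio of their counts was -0.29, -0.25 and -0.33 with selinexor and -0.87, -1.18 and -0.92 with vehicle, a difference of 0.70 (exact permutation p = 0.10, the smallest possible). In MOLM-13 the ratio averaged -1.78 ± 0.16 with selinexor and -1.91 ± 0.067 with vehicle (SD, n = 3), and the groups overlapped (exact permutation p = 0.30). The log2 ratio of DNMT1 to TET2 averaged 1.93 ± 0.098 with selinexor and 3.18 ± 0.094 with vehicle in OCI-AML2, and 3.06 ± 0.11 with selinexor and 4.44 ± 0.034 with vehicle in MOLM-13 (SD, n = 3). The difference was -1.25 in OCI-AML2 and -1.38 in MOLM-13, with no overlap in either line (exact permutation p = 0.10 in each).

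Downstream of the TET enzymes, the glycosylase TDG fell. It had 75.7, 74.8 and 79.2 CPM with selinexor and 133, 129 and 126 CPM with vehicle in OCI-AML2, and 105, 108 and 104 CPM with selinexor and 144, 120 and 126 CPM with vehicle in MOLM-13. The groups were separate in both lines, and the log2 fold change was -0.75 ± 0.054 in OCI-AML2 and -0.30 ± 0.053 in MOLM-13. Of 13 genes tested for removal of oxidised bases, 2 rose and 6 fell in OCI-AML2 and 5 rose and 7 fell in MOLM-13, with medians of -0.21 in OCI-AML2 and -0.19 in MOLM-13. That is 61.5% called in OCI-AML2, near the 63.1% of all genes, and 92.3% in MOLM-13, against 63.6%. Transcripts of the strand break sensor PARP1, its scaffold partner XRCC1 and the glycosylase NEIL3 fell by 0.65, 0.44 and 0.44 on the log2 scale in OCI-AML2 and by 0.54, 0.59 and 0.83 in MOLM-13. The glycosylase SMUG1 and the abasic site endonuclease APEX1, picked out after their values were seen, rose by 0.45 and 0.20 in OCI-AML2 and by 0.61 and 0.15 in MOLM-13.

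Among proteins that bind, recruit or modify TET enzymes, 4 rose and 4 fell of 9 tested in OCI-AML2 and 4 rose and 2 fell of 8 in MOLM-13, with medians of 0.13 in OCI-AML2 and 0.10 in MOLM-13. Of those tested, 88.9% were called in OCI-AML2 and 75.0% in MOLM-13, against 63.1% and 63.6% of all genes. OGT, the sugar transferase held in complexes with TET2 and TET3, had 106, 103 and 98 CPM with selinexor and 85.1, 84.5 and 89.1 CPM with vehicle in OCI-AML2, and 172, 171 and 161 CPM with selinexor and 87.6, 91.2 and 82.9 CPM with vehicle in MOLM-13. It was higher with selinexor in every library, by 0.25 ± 0.056 on the log2 scale in OCI-AML2 and 0.95 ± 0.051 in MOLM-13. WT1, a transcription factor that recruits TET2, fell by 1.31 in OCI-AML2 and by 0.51 in MOLM-13. The myeloid factor SPI1 and RBPJ, the DNA-binding partner of Notch, rose by 0.25 and 0.38 in OCI-AML2 and by 0.37 and 0.79 in MOLM-13.

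Readers of methylated CpG and their MBD family relatives, listed together, were called about as often as other genes. The share was 66.7% in OCI-AML2 (63.1% of all genes) and 62.5% in MOLM-13 (63.6% of all genes). MBD3, MBD5 and MBD6 are on the list as relatives and not as established readers. Of 9 tested in OCI-AML2, 4 rose and 2 fell, and of 8 tested in MOLM-13, 3 rose and 2 fell, with a median of 0.12 in each. The zinc finger readers ZBTB4 and ZBTB33 (Kaiso) rose by 1.04 and 0.50 on the log2 scale in OCI-AML2 and by 1.12 and 0.38 in MOLM-13. MBD2 and MBD3, alternative subunits of the NuRD corepressor, fell by 0.30 and 0.26 in OCI-AML2 and by 0.49 and 0.42 in MOLM-13.

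Enzymes that supply the 2 reactions were taken as a pair of lists. For the methyl donor cycle, 1 rose and 5 fell of 9 in OCI-AML2 and 3 rose and 3 fell in MOLM-13, with medians of -0.15 in OCI-AML2 and 0.00 in MOLM-13. Its share called, 66.7% in each line, is near the 63.1% and 63.6% of all genes. MAT2A, which makes S-adenosylmethionine, fell by 0.40 in OCI-AML2 and had a log2 fold change of 0.00 ± 0.037 in MOLM-13, a difference (OCI-AML2 minus MOLM-13) of -0.35 ± 0.056 (edgeR adjusted p = 3.5e-07). AHCYL1, MTR and MTRR fell by 0.27, 0.35 and 0.15 in OCI-AML2 and by 0.37, 0.15 and 0.14 in MOLM-13. For 2-oxoglutarate supply, 3 rose and 6 fell of 9 in OCI-AML2 and 1 rose and 8 fell in MOLM-13, with medians of -0.29 in OCI-AML2 and -0.39 in MOLM-13, so that all 9 were called in each line. D2HGDH, which turns the TET inhibitor 2-hydroxyglutarate back into 2-oxoglutarate, rose by 1.45 ± 0.12 in OCI-AML2 and 0.75 ± 0.083 in MOLM-13.

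IDH2, the mitochondrial NADP-dependent enzyme, had 268, 240 and 251 CPM with selinexor and 201, 204 and 201 CPM with vehicle in OCI-AML2, and 115, 117 and 117 CPM with selinexor and 245, 258 and 249 CPM with vehicle in MOLM-13. It was higher with selinexor in every OCI-AML2 library, as were 33.0% of all genes, and lower in every MOLM-13 library, as were 32.8%. The log2 fold change of IDH2 was 0.32 ± 0.043 in OCI-AML2 and -1.11 ± 0.044 in MOLM-13, a difference of 1.48 ± 0.062 (OCI-AML2 minus MOLM-13, edgeR adjusted p = 6.1e-36). IDH1, its cytosolic relative, IDH3A, a subunit of the Krebs cycle enzyme, and OGDH, which consumes 2-oxoglutarate, fell by 0.42, 0.76 and 0.38 in OCI-AML2 and by 0.44, 0.51 and 0.39 in MOLM-13.

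Relatives that act on RNA or repair alkylated bases included 4 of 7 that fell in each line, with medians of -0.12 in OCI-AML2 and -0.20 in MOLM-13. These 57.1% compare with 63.1% of all genes called in OCI-AML2 and 63.6% in MOLM-13. NSUN2, an RNA cytosine methyltransferase, ALKBH2, a repair enzyme for alkylated DNA, and ALKBH5, an RNA demethylase, fell by 0.51, 0.29 and 0.12 in OCI-AML2 and by 0.29, 0.46 and 0.20 in MOLM-13. FTO, another RNA demethylase, passed the test in neither line, with log2 fold changes of 0.05 ± 0.097 in OCI-AML2 and -0.13 ± 0.10 in MOLM-13. TRDMT1, a DNMT-like enzyme that methylates transfer RNA, fell by 0.74 in OCI-AML2 and had -0.02 ± 0.14 in MOLM-13, a difference of -0.68 ± 0.20 (edgeR adjusted p = 0.0052). Over the 7 lists from maintenance partners to 2-oxoglutarate supply, 16 genes rose and 33 fell of 68 tested in OCI-AML2 (72.1% called, against 63.1% of all genes), and 19 rose and 33 fell of 66 in MOLM-13 (78.8%, against 63.6%).

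**Figure D4:**
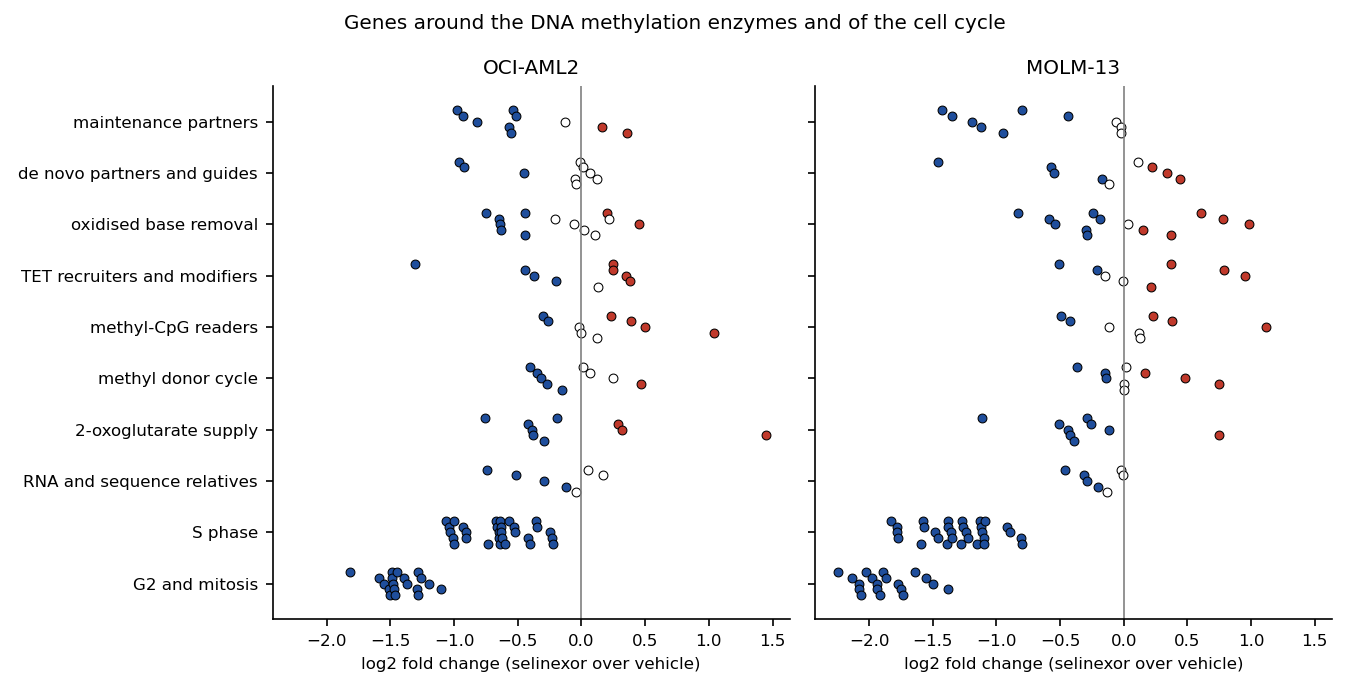
Log2 fold change (selinexor over vehicle) of each tested gene on 10 lists, in OCI-AML2 and MOLM-13. Red points rose and blue points fell at adjusted p under 0.05, and white points were not called. All S phase and all G2 and mitosis points lie below 0, whereas points on the list of methyl-CpG readers and relatives spread to both sides.

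The response of the enzymes was compared between the lines with an interaction term over the 12 libraries (OCI-AML2 response minus MOLM-13 response). DNMT1 fell less in OCI-AML2, with a difference of 0.41 ± 0.055 (edgeR adjusted p = 3.1e-09). DNMT3A differed by 0.81 ± 0.19 (edgeR adjusted p = 0.00069) and TET3 by -0.30 ± 0.082 (edgeR adjusted p = 0.0030), each with opposite signs in the lines. For DNMT3B the difference of -0.44 ± 0.24 did not pass (edgeR adjusted p = 0.16), nor did that of 0.28 ± 0.12 for TET2 (edgeR adjusted p = 0.064). The background was 30.1% of 12530 genes called. Of the calls, 63.2% were positive with TMM scaling, 55.6% with DESeq2's size factors and 50.8% with upper quartile scaling. The TET2 difference passed without OCI-AML2 selinexor library 3 (0.32, adjusted p = 0.046) or MOLM-13 selinexor library 3 (0.33, adjusted p = 0.038), and was lowest at 0.13 (adjusted p = 0.48) without OCI-AML2 vehicle library 2.

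Between the lines, 5 of the 6 enzymes were called different in vehicle-treated cells, as were 71.2% of all genes, so the count is near the background. These 5 include TET1, which was tested only through its OCI-AML2 libraries, so only its counts are given below. With all 12 libraries scaled together, DNMT1 averaged 384 ± 4 CPM in OCI-AML2 vehicle and 499 ± 12.6 CPM in MOLM-13 vehicle, a log2 difference of -0.38 ± 0.038 (OCI-AML2 over MOLM-13, edgeR adjusted p = 2.0e-15). DNMT3A averaged 26.2 ± 3.81 CPM in OCI-AML2 and 10.3 ± 1.1 CPM in MOLM-13, a difference of 1.36 ± 0.13 (edgeR adjusted p = 1.7e-15). DNMT3B averaged 21.5 ± 0.65 CPM in OCI-AML2 and 7.87 ± 1.02 CPM in MOLM-13, a difference of 1.46 ± 0.14 (edgeR adjusted p = 7.1e-16). For both de novo enzymes every OCI-AML2 library was above every MOLM-13 library, as for 36.9% of all genes. TET2 averaged 42.4 ± 3.17 CPM in OCI-AML2 and 23 ± 1.04 CPM in MOLM-13, a difference of 0.88 ± 0.086 (edgeR adjusted p = 7.9e-16). TET3 averaged 84 ± 3.62 CPM in OCI-AML2 and 86.1 ± 2.09 CPM in MOLM-13; the groups overlapped and the difference of -0.03 ± 0.058 did not pass (edgeR adjusted p = 0.60). TET1 had 195 counts in the 3 OCI-AML2 vehicle libraries and 1 in the 3 MOLM-13 vehicle libraries, a ratio of 161 after division by total counts (95% exact interval 28.6 to 6390, counting error only).

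Levels of different genes were compared per length, as CPM per kilobase of merged exons. DNMT1 stood at 24.6 ± 0.699 with selinexor and 39.9 ± 0.405 with vehicle in OCI-AML2, and at 24.3 ± 0.325 with selinexor and 50.6 ± 1.25 with vehicle in MOLM-13 (CPM per kilobase, SD, n = 3). TET3 came next in every group, with 6.29 ± 0.198 with selinexor and 6.97 ± 0.299 with vehicle in OCI-AML2, and 7.96 ± 0.474 with selinexor and 6.97 ± 0.169 with vehicle in MOLM-13. Each line was scaled alone, so these levels order the genes within a line. Below TET3 the order in OCI-AML2 was not the same with selinexor and with vehicle. With selinexor it was TET2 (3.83 ± 0.207), DNMT3A (2.6 ± 0.154), DNMT3B (2.05 ± 0.326) and TET1 (0.44 ± 0.133), and DNMT3A and DNMT3B did not overlap. With vehicle it was DNMT3B (4.73 ± 0.144), TET2 (2.62 ± 0.195), DNMT3A (2.22 ± 0.322) and TET1 (0.641 ± 0.0523), and the TET2 and DNMT3A libraries overlapped. In MOLM-13 with selinexor it was TET2 (1.73 ± 0.114), DNMT3B (1.02 ± 0.239), DNMT3A (0.581 ± 0.165) and TET1 (0.0251 ± 0.0142), and in MOLM-13 with vehicle DNMT3B (1.69 ± 0.221), TET2 (1.38 ± 0.0621), DNMT3A (0.848 ± 0.0918) and TET1 (0.00376 ± 0.00651). Neighbours in these MOLM-13 orders did not overlap, and TET1 was at or under the detection limit. With the longest transcript as length the order in MOLM-13 with vehicle turned, to 2.24 ± 0.101 for TET2 and 1.8 ± 0.236 for DNMT3B, and the other 3 groups kept theirs.

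As a share of its family per length, DNMT1 made up 84.1% ± 0.796 with selinexor and 85.2% ± 0.914 with vehicle in OCI-AML2, and 93.8% ± 0.312 with selinexor and 95.2% ± 0.675 with vehicle in MOLM-13 (SD, n = 3). Of the family in OCI-AML2, DNMT3A took 8.89% ± 0.528 with selinexor and 4.73% ± 0.677 with vehicle, and DNMT3B 7% ± 0.871 with selinexor and 10.1% ± 0.315 with vehicle. TET2 took 36.3% ± 0.499 of the TET family with selinexor and 25.6% ± 1.99 with vehicle in OCI-AML2, and 17.8% ± 1.59 with selinexor and 16.6% ± 0.636 with vehicle in MOLM-13. The OCI-AML2 groups were separate for TET2 and those of MOLM-13 overlapped. The shares depend on the length used, since merged exons of DNMT1 cover 9796 bases and its longest transcript 5408, and those of TET2 cover 16474 and 10166.

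**Figure D5:**
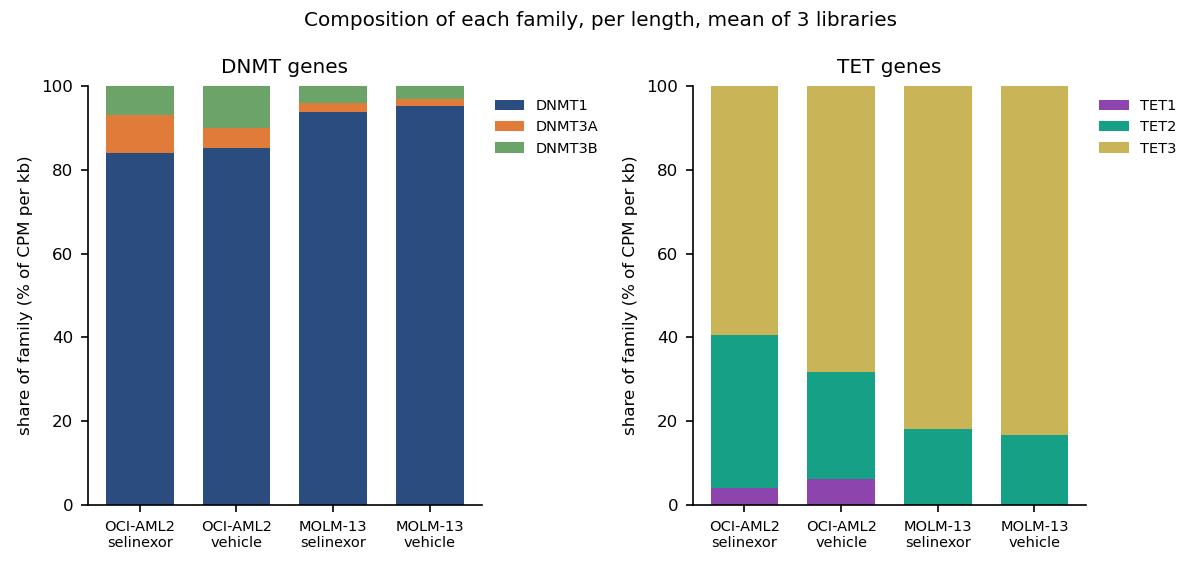
Share of each gene in its family (percent of summed CPM per kilobase of merged exons, mean of 3 libraries) with selinexor and vehicle in each line. DNMT1 fills 84.1 to 95.2% of the methyltransferase bars, and the TET2 block is tallest at 36.3% in OCI-AML2 with selinexor.

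The genes most like each enzyme over the 12 libraries were found by Pearson's r of log2 CPM among 9111 genes, as a description of libraries that share line and treatment. DNMT1 was closest to TMPO (0.997), which encodes the lamina protein thymopoietin, SAE1 (0.994), a subunit of the SUMO activating enzyme, and TIMELESS (0.994), a replication fork protein. TET2 was closest to NFAM1 (0.992), CST3 (0.991) and CXCR2 (0.989). DNMT3A was closest to PRR19 (0.988), TATDN3 (0.987) and GMCL1 (0.982), and DNMT3B to TBRG4 (0.984), HSP90AB1 (0.979) and MAN1A1 (0.978). TET1 was closest to IFT57 (0.993), GRK6 (0.991) and LOXHD1 (0.989). TET3 had the lowest values, with ND2 (0.952), MYCBP2 (0.934) and AHDC1 (0.929). Between the enzymes, r over the 12 libraries ran from -0.79 for DNMT3A and TET3 to 0.89 for DNMT3A and TET1. TET1 was at or under the limit of 3 counts in every MOLM-13 library, so its r values set OCI-AML2 levels against values near 0.

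In MOLM-13 the authors' deposited table gives log2 fold changes in the direction vehicle over selinexor. The authors' deposited table lists 1.07 for DNMT1, 0.56 for DNMT3A, 0.74 for DNMT3B, -0.31 for TET2 and -0.18 for TET3, so each has the same direction as the values above once its sign is turned. It also lists TET1, whose value is left out because it rests on 6 counts with selinexor and 1 with vehicle.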

How the data were processed

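The 6 enzymes and the gene lists were chosen with earlier results of these data known. STAR (genome build hg38), R 3.6.1 and DESeq2 are listed for the upstream steps, per the submitters' processing notes. Which program counted the reads, and with which annotation, is not given in the sources used here. Libraries were poly(A)-selected and carry no strand information, per the labels' protocols. For each line the authors deposited whole-number counts by gene symbol, and for MOLM-13 also log2 fold changes (vehicle over selinexor). Their normalized tables were not used. The count columns have no replicate number: a library's number here is its column's place in the table and serves as a name.

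Log2 fold changes and p-values were fitted to the deposited counts in edgeR 4.0.16 (R 4.3.3), with TMM factors, the filterByExpr rule at a minimum count of 10 and a minimum total of 15, robust quasi-likelihood dispersion and a Benjamini-Hochberg threshold of 0.05. A line's 6 libraries were fitted apart from the other line's. The interaction and the comparison of vehicle groups used 12 libraries and the 15615 symbols in both tables, scaled together. As alternatives, the size factors of DESeq2, upper quartile factors, unfiltered counts, the DESeq2 1.42.0 test, voom (limma 3.58.1), a joint fit and leaving out each library were run. Within-library log2 count ratios were compared with exact permutation tests.

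Replicate libraries had Spearman correlations across genes of 0.991 to 0.993, and 0 pairs were identical. Gene positions and exon lengths come from GENCODE 29 (GRCh38), matched by symbol, and promoters from RefSeq (GRCh38.p14). Named genes are the 6 enzymes, up to 4 per list with the smallest larger p of the lines, 10 of known role, and the 3 most correlated genes per enzyme with mean CPM of at least 10 (prior count 2); others are marked as chosen after their values were seen. The procedure was tested on simulated data. Of genes changed 2-fold it recovered 94.5% for OCI-AML2, 97.1% for MOLM-13 and 86.7% for the interaction. Of those changed 1.5-fold it recovered 87.5%, 79.4% and 61.4%. Far fewer genes were changed than in the data: 73 of 11969 were changed 2-fold for OCI-AML2, where 63.1% of genes were called. Only genes above a low mean count were changed, so these shares do not cover genes with fewer counts.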

Additional observations from a re-analysis of the deposited data

Results flagged for a closer look

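The responses of 4 genes differed between the lines by the interaction test (OCI-AML2 minus MOLM-13, edgeR): DNMT1 by 0.41 (adjusted p = 3.1e-09), DNMT3A by 0.81 (adjusted p = 0.00069), TET3 by -0.30 (adjusted p = 0.0030) and UHRF1 by 0.18 (adjusted p = 0.0068). For DNMT1 and UHRF1 both lines fell, and for DNMT3A and TET3 the signs were opposite. The background was 30.1% of all genes.

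The log2 ratio of DNMT1 to PCNA was lower with selinexor in every OCI-AML2 library, with a mean difference of -0.16, and higher in every MOLM-13 library, with one of 0.05. The log2 ratio of DNMT1 to UHRF1 was higher with selinexor in every OCI-AML2 library, with a mean difference of 0.12, and lower in every MOLM-13 library, with one of -0.11. These were picked out because every library of one line moved one way and every library of the other line the opposite way; the difference between the lines was not tested.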

How the results depend on the processing

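Of 422 recomputed values, 366 kept their direction and call or stayed within the limits set, 20 lost a call, 2 gained one, 2 changed sign and 32 shares or levels per length moved. No paired analysis was possible because the columns carry no replicate numbers. In OCI-AML2 upper quartile scaling gave -0.48 for TET1 (adjusted p = 0.055) and -0.10 for TET3 (0.16), DESeq2 gave 0.23 for DNMT3A (0.10), -0.54 for TET1 (0.079) and -0.15 for TET3 (0.067), voom gave 0.23 for DNMT3A (0.053), and the joint fit gave -0.49 for TET1 (0.070) and -0.11 for TET3 (0.098); the cause was not tested. Leaving out 1 library gave 0.13 to 0.35 for DNMT3A, -0.81 to -0.39 for TET1 and -0.18 to -0.12 for TET3 in OCI-AML2, -0.69 to -0.33 for DNMT3A in MOLM-13, 0.13 to 0.33 for the TET2 difference in response, and -0.04 to 0.03 for TET3 between vehicle groups, where the sign changed without OCI-AML2 vehicle library 1 (0.02) or 3 (0.03) and no call was made. DNMT1, DNMT3B and TET2 kept their direction and call within each line under all alternatives run.

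With the longest transcript as length the DNMT1 share was 89.1% with selinexor and 90.2% with vehicle in OCI-AML2, and 96% with selinexor and 97% with vehicle in MOLM-13; with no length scaling these were 85.5%, 89%, 95.3% and 96.5%. The TET2 share was 46.3% with selinexor and 34.2% with vehicle in OCI-AML2, and 24.6% with selinexor and 23% with vehicle in MOLM-13 by longest transcript, and 43.7%, 32.1%, 22.6% and 21% with no length scaling. Levels by longest transcript and scaling settings for the counts over the 7 lists were chosen after seeing the data, and under upper quartile scaling 22 rose and 32 fell in OCI-AML2 and 21 rose and 26 fell in MOLM-13. Transcript levels say nothing of protein or of methylation, and 3 libraries a group and 1 dose a line limit what can be compared.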

Other observations

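Genes that DNA methylation is known to silence, germline and imprinted genes, were mostly too low to test. Of 22 on the list, 4 passed the filter in each line. SNRPN, an imprinted gene, had 2.71, 1.73 and 1.79 CPM with selinexor and 0.206, 0.415 and 0.717 CPM with vehicle in OCI-AML2. The vehicle values lie near the limit of 3 counts, and the gene was tested there only through its selinexor libraries, so no fold is given. In MOLM-13 its log2 fold change was 0.70 ± 0.38 (edgeR adjusted p = 0.099). SYCP3, a protein of the meiotic chromosome axis, fell by 0.67 in OCI-AML2 (edgeR adjusted p = 0.0039) and was too low to test in MOLM-13. MEST, an imprinted gene, had -0.49 ± 0.26 in OCI-AML2 and -0.49 ± 0.23 in MOLM-13 and passed in neither line. The whole list summed to 10.7 to 13.7 CPM with selinexor and 13.4 to 15.6 CPM with vehicle in OCI-AML2, and to 10.9 to 11.2 CPM with selinexor and 10.1 to 11.1 CPM with vehicle in MOLM-13.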
